A study of Mus musculus with 2 samples.

Results

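The miRNAs described here are mmu-miR-146a-5p, mmu-miR-146b-5p, mmu-miR-155-5p, mmu-miR-132-3p and mmu-miR-212-3p. They were grouped as miRNAs induced by the transcription factors NF-κB or CREB. The species prefix is left off below. They were chosen by name, as miRNAs with a known link to immune signalling. The rule used no measured value, but it was written with earlier results of these data known. All 5 were found among the 1214 miRNA entries of the deposited table. The table held 1374 entries in all, the others being piRNAs.

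The study asked which miRNAs are enriched in exosomes, small vesicles released into the medium, of mouse mesenchymal stem cells (MSCs) when exosomes of NIH3T3 cells serve as the control. MSCs are connective-tissue progenitors able to give rise to fat, cartilage and bone, and here they were of strain C57BL/6. NIH3T3 is an immortalised mouse fibroblast line, labelled as NIH Swiss, so that strain and cell type cannot be told apart in this design. The labels name neither the tissue that gave the MSCs nor any added stimulus, and both cell types were kept for 72 hours in αMEM that held 5% fetal bovine serum. Each group held 1 library, so nothing below has a replicate check and no test was made.

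miR-146 and miR-155 are made when cells sense microbial products or inflammatory cytokines. miR-146a and miR-146b repress Traf6 and Irak1, signalling proteins on the path from Toll-like receptors to NF-κB, and so act as negative feedback. miR-155, cut from the transcript once called Bic, represses the signalling inhibitors Socs1 and Inpp5d and is known for promoting immune activation. miR-132 and miR-212 come from a shared primary transcript, are best known as activity-regulated miRNAs of neurons, and also respond to stimulation in immune cells.

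The mature sequences are shown because the 5 miRNAs fall into 3 seed groups, and members of a seed group can be told apart by few bases. They are written 5′ to 3′ from RefSeq (GRCm38.p6, the assembly behind mm10), with the seed, bases 2 to 8, in capitals.
miR-146a-5p: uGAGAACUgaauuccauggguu
miR-146b-5p: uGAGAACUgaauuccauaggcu
miR-155-5p: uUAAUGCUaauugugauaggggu
miR-132-3p: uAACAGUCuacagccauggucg
miR-212-3p: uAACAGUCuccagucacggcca

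No other mature mouse miRNA in the RefSeq table had any of these 3 seeds. Counted from the 5′ end of miR-146a-5p, miR-146b-5p differed by 2 of 22 bases, G18A and U21C. A read that ends before the first of these positions cannot be assigned to either of them, so the split between miR-146a-5p and miR-146b-5p depends on the authors' counting. miR-132-3p and miR-212-3p differed by 5 bases, A10C, C14U, U17C, U20C and G22A, counted from the 5′ end of miR-132-3p. Stretches of 18 bases of miR-146b-5p, miR-132-3p and miR-212-3p occurred in no annotated transcript but that of their own hairpin. A stretch of miR-146a-5p also occurred in a transcript of another gene, Gm20257, and one of miR-155-5p in its host Mir155hg.

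In mm10, miR-146a-5p lay at chr11:43374435-43374456 on the minus strand, within no annotated gene other than its hairpin Mir146. miR-146b-5p lay at chr19:46342790-46342811 on the plus strand, in an intron of a Mfsd13a transcript. miR-155-5p lay at chr16:84714143-84714165 on the plus strand, in an exon of the long non-coding RNA Mir155hg. miR-212-3p, at chr11:75173443-75173464, and miR-132-3p, at chr11:75173723-75173744, were both on the plus strand in an intron of the processed transcript 1700016P03Rik, and 203 bases separated their hairpins.

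The MSC library held 2500459 counts, of which 1028186 were on miRNAs, and the NIH3T3 library 1037147 and 431007. Levels are given in CPM, counts per 1000000 miRNA counts of the library. Brackets hold 95% intervals, which cover counting error only. The ratio is the log2 of MSC over NIH3T3 exosomes on the scale of the deposited normalized values, and a difference of 2-fold or more was called by size. miRNAs at 100 CPM or more in at least 1 library form the background, and there were 318 of them, with a median log2 ratio of 0.28. Of 7 stromal miRNAs such as miR-199a-3p, miR-143-3p and miR-214-3p, all were over that level, 5 were within 2-fold, and 2 were higher in MSC exosomes.

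The miR-146 miRNAs and miR-155-5p were lower in MSC exosomes, and miR-132-3p and miR-212-3p were under 100 CPM in both libraries. miR-146a-5p, miR-146b-5p and miR-155-5p were over 100 CPM in each library, and all 3 were called lower, where 26.1% of the background was called lower and 34% higher. Their counting intervals also lay wholly beyond 2-fold, as did those of 22.6% of the background in that direction. Together they took 4.19% of the NIH3T3 library's miRNA counts (4.13 to 4.25), against 0.154% of the MSC library's (0.146 to 0.162). By MSC counts, miR-212-3p ranked 279 and miR-132-3p 464 of the 1214 miRNAs. Being under 100 CPM in both libraries, neither belonged to the background and neither was counted as called. Levels are relative to a library's other miRNAs, so absolute amounts were not measured, nor were levels in the cells. In a vesicle preparation, fewer vesicles that carry a miRNA and fewer copies in each cannot be told apart either.

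**Figure D1:**
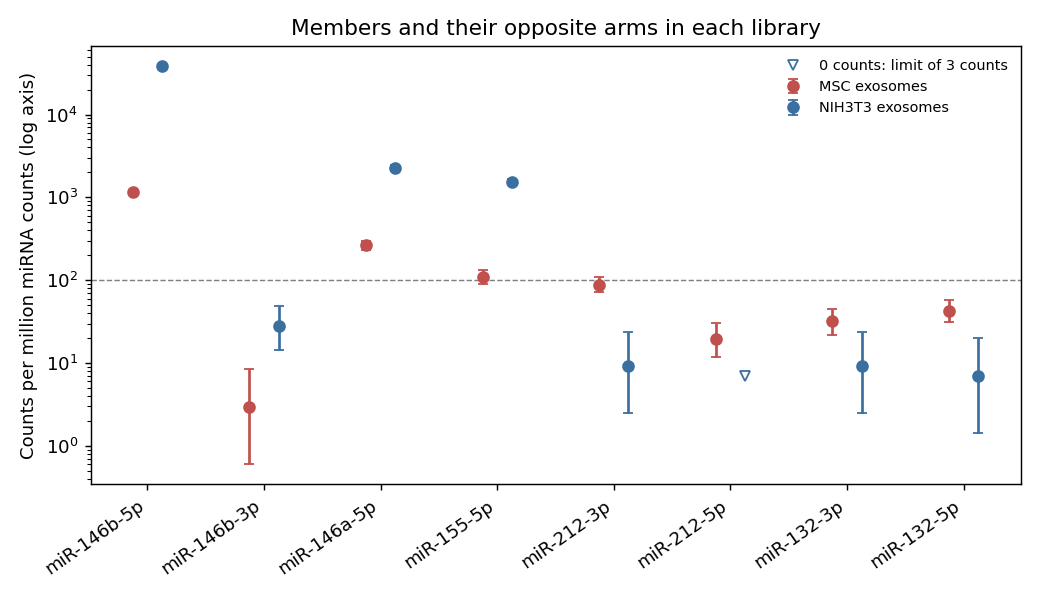
Level of each member and of its opposite hairpin arm, where the table lists one, in CPM of miRNA counts on a log axis, with 1 point per library and 95% Poisson counting intervals; the dashed line is 100 CPM, and the open triangle is the limit that a count of 0 allows. The miR-146 and miR-155 points are higher in NIH3T3 exosomes, reaching 38071 CPM for miR-146b-5p, and those of miR-132 and miR-212 are higher in MSC exosomes.

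miR-146b-5p was the most abundant member in both libraries. It reached 16409 raw counts in NIH3T3 exosomes, or 38071 CPM (37491 to 38658), against 1198 for MSC, or 1165 CPM (1100 to 1233). By counts it ranked 6 of 1214 miRNAs for NIH3T3 exosomes but 74 for MSC exosomes. Its log2 ratio was -5.26 (-5.35 to -5.18), which is 38.5-fold lower in MSC exosomes, and 11 of the 318 background miRNAs had a lower ratio.

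miR-146a-5p, the member of the family with the best-described role in restraining macrophage and T cell responses, had 983 raw counts for NIH3T3 against 271 for MSC. These were 2281 CPM (2140 to 2428) and 264 CPM (233 to 297), at ranks 48 and 149. The NIH3T3 level was the higher one, and the intervals did not overlap. On the deposited scale miR-146a-5p was 10.2-fold lower in MSC exosomes, with a log2 ratio of -3.34 (-3.55 to -3.15), and 32 background miRNAs had a lower one.

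The ratio of the miR-146 miRNAs to each other, which does not depend on how the libraries were scaled, also differed. miR-146b-5p made up 94.3% of the pair's 17392 counts on the NIH3T3 side (94.0 to 94.7) and 81.6% of its 1469 counts on the MSC side (79.5 to 83.5). For each count of miR-146a-5p there were thus 16.7 of miR-146b-5p with NIH3T3 (15.7 to 17.8) and 4.42 with MSC (3.87 to 5.06). Since both have the same seed, their sum gives the load of that seed, 4.04% of all miRNA counts for NIH3T3 (3.98 to 4.09) and 0.143% for MSC (0.136 to 0.150). The log2 ratio of the sum was -5.05 (-5.13 to -4.98), a value that an exchange of reads within the pair cannot move.

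miR-155-5p, the only member with its seed, had 662 raw counts for NIH3T3 against 113 for MSC. Its level was 1536 CPM (1421 to 1658) in the first and 110 CPM (90.6 to 132) in the second, at ranks 66 and 247. The log2 ratio of -4.03 (-4.34 to -3.75), or 16.5-fold lower in MSC exosomes, lay between those of miR-146a-5p and miR-146b-5p, and the counting intervals of the 3 did not overlap. Within a library, each count of miR-146a-5p was matched by 0.673 of miR-155-5p for NIH3T3 (0.609 to 0.744) and by 0.417 for MSC (0.332 to 0.521). The order miR-146b-5p, miR-146a-5p, miR-155-5p held in both libraries.

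**Figure D2:**
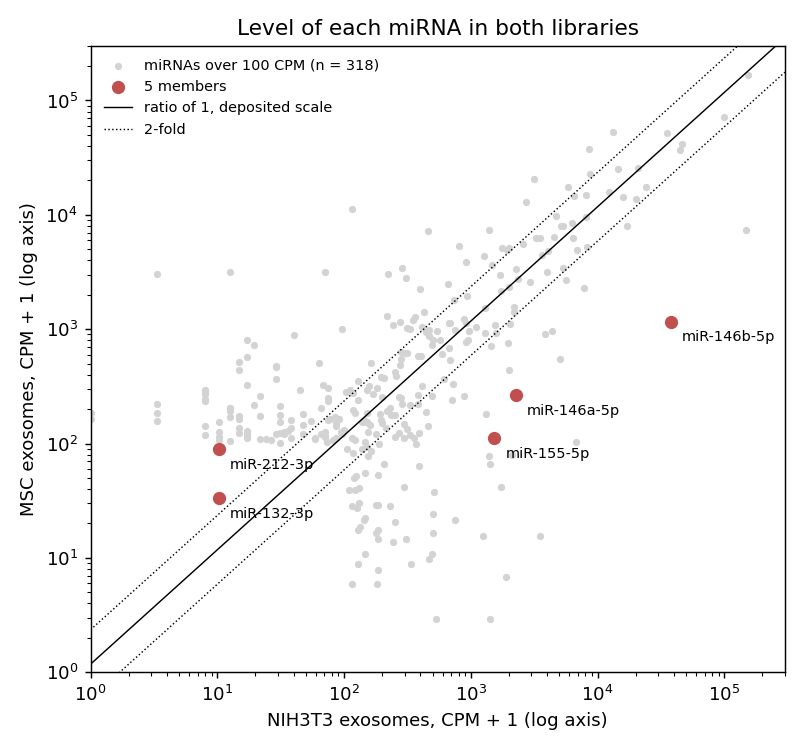
Level in MSC exosomes against level in NIH3T3 exosomes, in CPM of miRNA counts plus 1 on log axes, for the 318 background miRNAs (grey) and the 5 members (red), with lines for a ratio of 1 and for 2-fold on the deposited scale. miR-146a-5p, miR-146b-5p and miR-155-5p lie below the lower 2-fold line, while miR-132-3p and miR-212-3p, at 4 NIH3T3 counts each, lie above the upper one.

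miR-146a-5p and miR-155-5p are also abundant in blood cells, so markers of those cells were read beside them. Of 8 haematopoietic markers 7 were in the table, with none at 0 in either library, and their summed level was 1851 CPM for NIH3T3 and 514 CPM for MSC. Most of that gap came from miR-342-3p, and without it, a step chosen after seeing the data, the sums were 531 and 335 CPM. The 2 over 100 CPM, miR-342-3p and miR-142a-3p, were both called lower in MSC exosomes, as was 26.1% of the background. The MSC and NIH3T3 counts were 185 and 569 for miR-342-3p, a miRNA of lymphoid cells (log2 ratio -3.10, -3.36 to -2.87). For miR-142a-3p, expressed throughout the blood lineage, they were 121 and 142 (-1.71, -2.08 to -1.36). The myeloid miR-223-3p had 84 and 17 and was within 2-fold (log2 ratio 0.80, 0.05 to 1.66). Also under 100 CPM and within 2-fold were miR-150-5p of lymphocytes (0.79, -0.46 to 2.39) and miR-486a-5p of red cells (-0.46, -1.12 to 0.22). So was miR-142a-5p, the opposite arm of miR-142a-3p (-0.09, -1.33 to 1.29). Each of these intervals also includes differences over 2-fold. The red cell miR-451a, under 100 CPM too, was at -1.40 (-2.27 to -0.60). The part of these markers' source in the miR-146 and miR-155 levels was not tested. The liver miRNA miR-122-5p, which the culture serum can also carry, was at 8088 CPM for NIH3T3 and 9491 CPM for MSC.

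miR-212-3p was counted 91 times for MSC against 4 for NIH3T3, or 88.5 CPM (71.3 to 109) and 9.28 CPM (2.53 to 23.8). The MSC level was the higher one, and it overlapped that of miR-155-5p in the same library within counting error. The log2 ratio was 2.90 (1.61 to 4.92), so that the whole counting interval lay beyond 2-fold, and 44 of the 318 background miRNAs had a higher ratio.

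For miR-132-3p, which is known to promote dendrite growth in neurons, there were 33 counts for MSC against 4 for NIH3T3. Its level was 32.1 CPM (22.1 to 45.1) against 9.28 CPM (2.53 to 23.8). These intervals overlapped, though the log2 ratio of 1.47 had a counting interval above 0, from 0.06 to 3.51. This interval includes differences under 2-fold. miR-132-3p and miR-212-3p had the same NIH3T3 count and could not be ordered there.

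At 4 counts, both were below the minimum of 10 that every entry of the table reached in at least 1 library, and so they were listed through their MSC level alone. Of the 566 miRNAs with under 10 NIH3T3 counts, 37.8% were called higher in MSC exosomes, and 11.3% had an interval wholly beyond 2-fold. miR-132-3p and miR-212-3p were both among the first, and miR-212-3p was among the second.

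The hairpins of this cluster are shown because the table lists both arms of each, which lets the arms be compared. Capitals mark the mature 5p and 3p arms, in RefSeq's GRCm38.p6.
pre-Mir212: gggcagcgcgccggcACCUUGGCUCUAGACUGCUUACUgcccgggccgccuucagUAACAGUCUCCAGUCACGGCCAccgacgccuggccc
pre-Mir132: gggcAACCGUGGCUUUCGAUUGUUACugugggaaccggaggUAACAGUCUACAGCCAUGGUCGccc

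In MSC exosomes the 5p arm of miR-132 was counted about as often as the 3p arm, which is the arm usually taken as the functional one. miR-132-5p had 44 counts and miR-132-3p 33, so that the 3p arm was 42.9% of the 77 counts (31.6 to 54.6), an interval that includes equal amounts. The neighbouring miR-212 hairpin gave mostly its 3p arm, with 91 counts of miR-212-3p and 20 of miR-212-5p, or 82.0% (73.6 to 88.6). In NIH3T3 exosomes these arms had 3, 4, 4 and 0 counts in the order miR-132-5p, miR-132-3p, miR-212-3p and miR-212-5p, too few to order them.

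The 5p arms, like the 3p arms, were listed in the table through their MSC counts alone, so their direction adds no separate support. miR-132-5p had a log2 ratio of 2.24 (0.74 to 4.72). For miR-212-5p, with 20 counts against 0, the counting interval of the log2 ratio began at 0.81 and had no upper end. Neither counting interval lay wholly beyond 2-fold. Over all 4 arms there were 188 counts against 11, a log2 ratio of 2.56 (1.73 to 3.63), under the same limit. The arms come from a shared transcript and are not independent. Of the seed pair's 124 MSC counts, miR-132-3p made up 26.6% (19.1 to 35.3), and of its 8 NIH3T3 counts 50% (15.7 to 84.3). A difference in this share was not detectable at this depth.

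**Figure D3:**
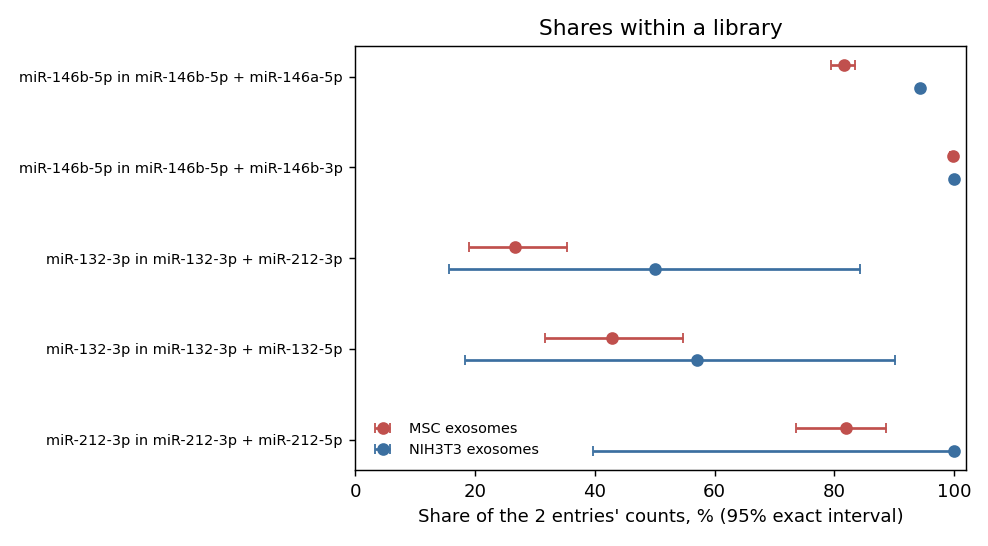
Share of the first-named miRNA in the summed counts of a pair, in percent, within each library, for miRNAs of a shared seed and for the arms of a hairpin, with 95% exact binomial intervals. miR-146b-5p takes 81.6% of the miR-146 pair in MSC exosomes and 94.3% in NIH3T3 exosomes, while the NIH3T3 intervals of the miR-132 and miR-212 pairs span a wide range, such as 15.7 to 84.3%.

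The miR-146b hairpin, in contrast, gave nearly only its 5p arm. miR-146b-3p was counted 12 times for NIH3T3 and 3 times for MSC. Each 3p count was thus matched by 1367 of the 5p arm in the first (783 to 2647) and by 399 in the second (136 to 1939). These intervals overlapped. The log2 ratio of miR-146b-3p was -3.08 (-5.95 to -1.60). This arm met the table's minimum of 10 counts through the NIH3T3 library alone, and any entry with so few MSC counts had to be lower there. The opposite arms of miR-146a and miR-155 were not analysed here.

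Other miRNAs with a role in innate immunity did not share a direction. Of a list of 17, all were in the table and 15 over 100 CPM, of which 4 were called higher for MSC, 6 lower and 5 neither, where 34% of the background was called higher and 26.1% lower. The median log2 ratio of the 15 was 0.19, beside 0.28 for the background. In both libraries 10 of the 15 were over 100 CPM, and miR-9-5p, miR-147-3p and miR-511-3p were among those over it in their higher library alone. miR-9-5p, which Toll-like receptor ligands induce in human monocytes, had the lowest ratio of the list, with 21 counts against 322 (-5.36, -6.14 to -4.79), an interval that includes the ratio of miR-146b-5p. miR-147-3p, induced by the same ligands in mouse macrophages, went the other way, with 222 against 8 (3.24, 2.30 to 4.53).

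miR-187-3p, with 100 against 159 (-2.15, -2.53 to -1.79), was among the lower ones. So were miR-181a-5p, which tunes T cell receptor signalling (-1.90, -2.25 to -1.56), and miR-181b-5p (-1.92, -2.25 to -1.61). The higher ones included miR-511-3p, from an intron of the macrophage mannose receptor gene Mrc1, with 123 counts against 7 (2.58, 1.56 to 3.99). Its opposite arm miR-511-5p, under 100 CPM, had 66 against 4 (2.44, 1.13 to 4.47).

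Entries from a shared cluster differed in direction. miR-99b-5p, let-7e-5p and miR-125a-5p are transcribed together, and their log2 ratios were 0.19 (0.13 to 0.25), -1.30 (-1.38 to -1.22) and 0.66 (0.60 to 0.71). Of these, only let-7e-5p was beyond 2-fold. With all ratios centred on the background median, miR-99b-5p was at -0.08, so its direction depended on the scaling. The remaining list members over 100 CPM were miR-10a-5p (-3.05), miR-21a-5p (-0.27), miR-29b-3p (0.40), miR-301a-3p (0.95), miR-27b-3p (1.29) and miR-125b-5p (1.75), of which the first was called lower and the last 2 higher.

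**Figure D4:**
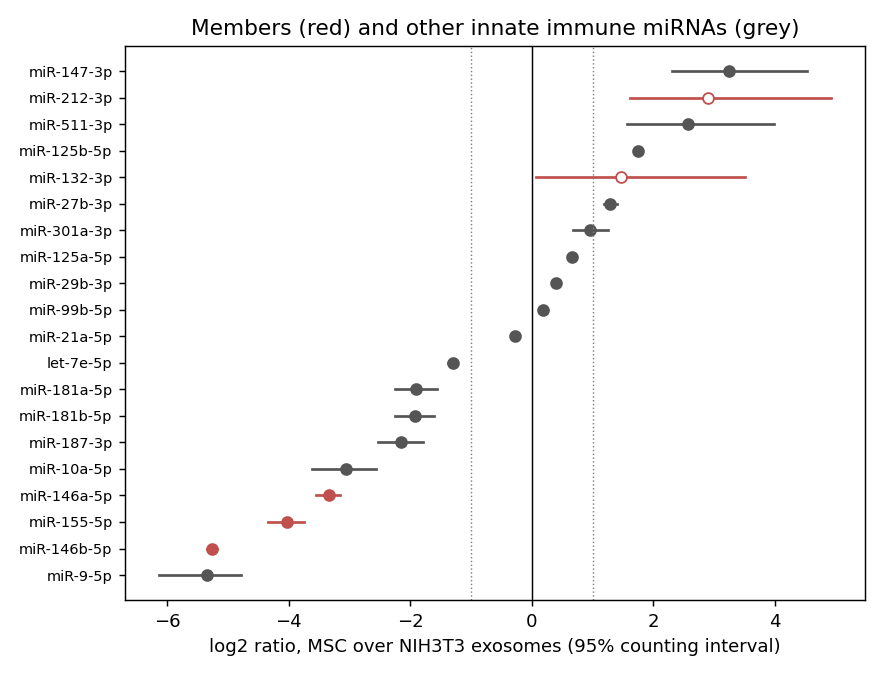
The log2 ratio of MSC over NIH3T3 exosomes, with 95% counting intervals, for the 5 members (red) and the 15 innate immune list miRNAs over 100 CPM (grey); open circles are members under 100 CPM and dotted lines mark 2-fold. miR-9-5p and miR-146b-5p are lowest, at -5.36 and -5.26, while miR-147-3p and miR-212-3p are highest, at 3.24 and 2.90.

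The miRNAs closest to each member in level were found by distance in the plane of log2 CPM over the 2 libraries. miR-146b-5p had no close companion, the nearest being miR-423-5p at a distance of 2.48 log2 units and let-7a-5p at 3.01. For miR-146a-5p they were miR-423-3p (0.76) and miR-342-3p (0.96), and for miR-155-5p miR-134-5p (0.53) and miR-712-5p (0.66). miR-132-3p and miR-212-3p lay in a dense part of the plane. miR-211-5p and miR-6539, each with 32 MSC counts and 4 NIH3T3 counts, were nearest to miR-132-3p (0.04 each), and miR-219a-5p (0.26) and miR-718 (0.29) to miR-212-3p.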

How the data were processed

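Small RNA libraries were made from exosomal RNA with the QIAseq miRNA kit, per the labels' protocols, which also mention a microarray. Per the submitters' processing notes, coordinates are in mm10. No source used here gives the aligner, the counter or the use of molecular identifiers. The deposited raw counts were whole numbers. The deposited log2 normalized values were log2 of a product, the raw count and a library factor of 0.655 (MSC) or 1.84 (NIH3T3), with 0 where that product was under 1.

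The members and lists were chosen with earlier results of these data known. Named are the 5 members, their opposite arms, the 2 nearest miRNAs of each, the immune list and the cell type markers. The log2 ratio used these factors and an added constant of 0.734, which is 1 CPM of the libraries' average scaled miRNA total. Its interval is the exact conditional (Clopper-Pearson) one of the raw counts, without the constant. Shares of a library's miRNA counts have Wilson intervals, shares of a pair's counts exact ones, CPM Poisson ones. If the counts are reads, PCR copies make all of these too narrow. A count of 0 allows 3 counts, or 6.96 CPM in the NIH3T3 library and 2.92 CPM in the MSC library. Alternatives changed the scaling, centring, constant, floor and call rule. Python 3.11.15 and SciPy 1.17.1 were used, and the calculation was tested on simulated data.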

Additional observations from a re-analysis of the deposited data

How the results depend on the processing

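The 3 members over 100 CPM were called lower under every scaling, constant and call rule tried. The floors tried could not change these calls. A floor leaves a ratio as it is, and all 3 were over 1000 CPM in NIH3T3 exosomes. Scaled by the miRNA total, by the total of all entries, or centred on the median, the log2 ratio of miR-146a-5p was -3.11, -3.12 and -3.62. That of miR-146b-5p was -5.03, -5.04 and -5.54, and -5.43 without the 10 most abundant miRNAs of either library. These scalings put the median of all 318 miRNAs at 0.51, 0.50, 0 and, without the most abundant, 0.11. miR-155-5p ranged from -4.30 to -3.79, miR-212-3p from 2.19 to 3.12 and miR-132-3p from 0.98, under 2-fold, with 10 CPM added, to 2.41 when summed with miR-212-3p, an alternative chosen after seeing the data. Summing moved miR-146a-5p to -5.05.

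With a floor of 10 CPM or none, 2 members were called higher beside the 3 lower. Of all miRNAs, 309 of 1181 were then lower and 282 higher with a floor of 10 CPM. With no floor, 309 of 1214 were lower and 289 higher. At 1000 CPM 25 of 105 miRNAs were lower and 34 higher, and of the 7 immune list miRNAs left 1 was lower and 2 higher. Scaled by either total, 5 of the list were higher, miR-301a-3p joining at 1.19 by the miRNA total. No paired analysis was possible because each group held 1 library. For miR-132 and miR-212, depth is the limit, at 4 or fewer NIH3T3 counts per arm.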

Other observations

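Markers of 2 further cell types were measured. The endothelial miR-126a-3p had 309 NIH3T3 and 337 MSC counts (log2 ratio of MSC over NIH3T3 -1.36, -1.59 to -1.14), and its opposite arm miR-126a-5p had 22 and 43 (-0.51, -1.30 to 0.29). Of 5 epithelial markers 2 were in the table, miR-200b-3p with 7 and 23 counts and miR-205-5p with 13 and 28. Both were under 100 CPM in each library. Their log2 ratios were within 2-fold, at 0.22 (-1.04 to 1.69) and -0.37 (-1.38 to 0.69), but these intervals also include larger differences.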
